A study of Homo sapiens with 9 samples.

Results

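Loss and gain of kinase knockouts during drug-free growth of RH4 cells were measured by comparing 3 vehicle libraries taken on day 10 with 3 baseline libraries of the same CRISPR screen, 6 of its 9 libraries. The comparison was defined by sample labels alone and covered every single guide RNA (sgRNA) in the count table, 3152 in all, with 4 against each of 763 genes for kinases and kinase-related proteins and 100 non-targeting sgRNAs designed to match no human gene. RH4 is a human fusion-positive rhabdomyosarcoma (FP-RMS) line that carries the PAX3::FOXO1 fusion, grown here in RPMI with 10% serum, so all values come from 1 cell line. All groups had been transduced with the pooled lentiviral vectors of the Brunello kinome library at 1000x coverage. Puromycin selection (0.25 µg/ml) began 48 h later and lasted 72 h per the labels. Baseline cells were harvested at that point. Vehicle cells recovered for 72 h and were then kept in vehicle, with passages every 4 days, until day 10. A longer selection is given in the study's running text, so the time from transduction to the baseline harvest is uncertain. By the labels, the interval after baseline was 72 h of recovery, a step the running text does not mention, and then vehicle until day 10. The other 3 libraries came from cells given 1.5 nM pralatrexate, an antifolate, and entered the read filter and the estimate of the spread between libraries, with 1 further value given near the end.

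In a dropout screen, Cas9 cuts the gene that each sgRNA names, and the sgRNA stays in the genome of that cell and its descendants as a tag. Cells that need the gene divide less or die, so the read share of their sgRNAs falls between an early and a late harvest, while cells that grow better without the gene take a larger share. Kinases are enzymes that transfer phosphate groups, and the genes covered by such a library range from switches of the division cycle and of growth signalling to housekeeping enzymes that phosphorylate nucleotides, sugars and lipids. Losses that preceded the baseline harvest are not contained in the fold changes.

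Baseline libraries held 3483100 to 4431337 reads and vehicle libraries 3194504 to 4602712. Reads were spread less evenly over sgRNAs at day 10, with a Gini index of 0.284 to 0.289 against 0.237 to 0.243 at baseline, where 0 would be a perfectly even pool. Libraries of 1 group differed more at day 10 as well. Their counts varied by 18.2 to 25.8 times the sampling variance between vehicle libraries and by 10.7 to 11.9 times between baseline libraries, so no pair of libraries was the same one deposited again. The sources call the repeats both parallel cultures and technical replicates, so the p-values capture no more than how much these libraries varied, which may be technical variation.

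Knockouts that fell far outnumbered those that rose. By rank aggregation, which asks whether the sgRNAs of a gene sit together near the top of the list of changed sgRNAs, 51 of 763 genes were depleted (6.68% of all genes tested) and 3 were enriched (0.393%). Every false discovery rate (FDR) given for a gene came from this aggregation, with Benjamini-Hochberg adjustment over the 763 genes. The p-values aggregated were those of the edgeR quasi-likelihood test, or of DESeq2, another test of read counts, where it is named. A gene was called at an FDR under 0.05. At an unadjusted p under 0.05 there were 115 depleted and 60 enriched genes. Log2 fold changes of genes are averages of those of their sgRNAs, given with the SD across sgRNAs. The level of a gene in a library is the average log2 CPM of its sgRNAs, where CPM is a read count scaled by the library total. The depleted genes had a median log2 fold change of −1.50, and 43 of them were below −1. Below −2 there were 12.

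**Figure D1:**
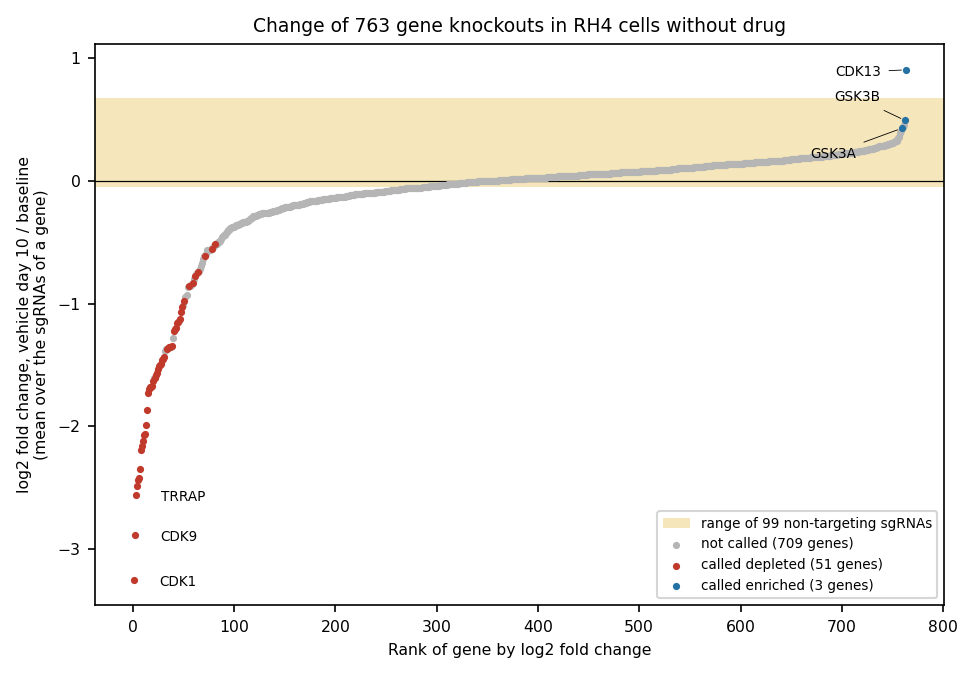
All 763 genes are ordered along the horizontal axis by their log2 fold change from baseline to vehicle at day 10, which the vertical axis shows. Red points are the 51 depleted genes, blue points the 3 enriched genes and grey points the genes not called, and the yellow band is the range of 99 single non-targeting sgRNAs, from −0.05 to 0.67. The decline is steep on the left, where CDK1 lies at −3.25, and shallow on the right, where CDK13 alone lies above the band.

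Single sgRNAs were split less unevenly. Of 3145 sgRNAs with enough reads to test, 401 were lower (12.8%) and 197 higher (6.26%) in vehicle libraries in the edgeR quasi-likelihood test at an adjusted p under 0.05. The number of higher sgRNAs was 122, 115 and 110 without baseline 1, 2 or 3, and 336 in DESeq2. The 203 tested sgRNAs of depleted genes supplied 187 of the lower ones, and the other 214 belonged to genes that were not called. Of the uncalled genes, 56 had 2 or more sgRNAs called lower and 81 had exactly 1. In 186 genes (24.4%) all 3 vehicle libraries lay below all 3 baseline libraries, and in 149 genes (19.5%) they lay above. All 51 depleted genes were among the former, and they were called on the same libraries, so non-overlap in them is no separate support.

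The zero of this scale was set by the whole pool, and the non-targeting sgRNAs did not sit at it. They rose by a median of 0.31 (SD 0.13 over 99 sgRNAs, range −0.05 to 0.67), and 38 of them were called higher, whereas targeting sgRNAs had a median of 0.01. The rise was 0.29, 0.36 and 0.32 in vehicle libraries 1, 2 and 3, close to equal. sgRNAs of 30 genes listed as restricted to germline, lymphoid or photoreceptor cells cut the genome at genes presumed not to be needed here. These genes had a median change of 0.05 (range −0.34 to 0.33), with none called. Neither their expression in RH4 nor the cause of their difference from the non-targeting sgRNAs was tested. When the libraries were scaled on the non-targeting sgRNAs, the all-gene median became −0.31. It turned the split of single sgRNAs into 1389 lower and 13 higher, and the genes without overlap into 646 below and 1 above baseline, while 48 genes were depleted and 2 enriched. The calls on ACVR1, PIK3C3, PIP5K1A and GSK3B were among those that ended under that scaling. Directions of small changes thus hold only relative to the pool.

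Kinases of the division cycle showed the largest decrease. Of 10 cyclin-dependent kinases (CDKs) of the cell cycle and their regulators, 4 were depleted (40%, against 6.68% of all genes) and none was called enriched. The list median was −0.65 against 0.02 over all genes. CDK1 is the kinase that drives cells into mitosis. Its sgRNAs averaged 7.57, 7.44 and 7.58 log2 CPM in baseline libraries 1, 2 and 3 and 4.93, 3.74 and 3.90 in vehicle libraries 1, 2 and 3. All vehicle libraries were low, and vehicle 1 was the highest of them. CDK1 fell by 3.25 ± 0.72 in log2 units (SD over 4 sgRNAs; FDR 0.00333), which left 0.105 of the baseline abundance, the lowest share of all genes. The most depleted CDK1 sgRNA went from 1415, 1352 and 1156 reads to 91, 25 and 82. PKMYT1, a membrane kinase that holds CDK1 inactive, fell by 1.57. CDK6 (−1.45) and CDK2 (−0.74), which act in G1 and at the start of DNA synthesis, fell as well.

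Mitotic genes followed, with 6 of 19 depleted (31.6%, against 6.68% of all genes) and a median of −0.56. PLK1, a kinase of spindle assembly and mitotic exit, stood at 7.04, 6.87 and 6.69 log2 CPM at baseline and at 5.09, 4.36 and 4.66 in vehicle libraries 1 to 3. The groups lay far apart, although PLK1 sgRNAs were scarce at baseline, where the median gene was at 8.20. It fell by 2.12 ± 0.47 (SD, 4 sgRNAs; FDR 0.00735). The call ended when a mean of 300 reads over all libraries was required of each sgRNA (FDR 0.250), a mean to which the reads at day 10 also contribute, as did the call on AURKA (FDR 0.165). PLK4, which starts the duplication of centrioles, was at 7.94, 8.00 and 8.11 log2 CPM at baseline and at 6.15, 5.80 and 5.81 in vehicle libraries 1 to 3. It fell by 2.07 ± 1.17 (SD, 4 sgRNAs; FDR 0.00333), with no overlap between the groups. AURKB, of the chromosomal passenger complex, fell by 1.87, and AURKA, of spindle poles, fell by 1.49. BUB1B, of the spindle checkpoint, fell by 1.36 with the closest agreement among sgRNAs of all depleted genes (SD 0.08), and the nuclear pore protein TPR fell by 1.07. The checkpoint kinases TTK (−0.93, FDR 0.209) and BUB1 (−0.67, FDR 0.225) did not pass.

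Among the function lists as drawn up, genes of DNA replication and its checkpoint had the highest share of depleted members. It was 5 of 11 (45.5%, against 6.68% of all genes), with a median of −0.45. CDC7 fires replication origins. Its level was 7.86, 7.78 and 7.88 log2 CPM in the baseline libraries and 5.43, 5.23 and 5.23 in the vehicle libraries, tightly grouped on both sides. It fell by 2.49 ± 1.69 (SD, 4 sgRNAs; FDR 0.00626). The 4 CDC7 sgRNAs, from −3.92 to −0.59, had the largest SD of all depleted genes. CHEK1, the kinase that stalls the cycle when replication forks falter, was at 8.32, 8.24 and 8.31 log2 CPM at baseline and at 6.32, 5.74 and 6.18 in the vehicle libraries. Vehicle 2 was the lowest, and all vehicle values were below baseline. CHEK1 fell by 2.20 ± 1.29 (SD, 4 sgRNAs; FDR 0.00345). HUS1, of the checkpoint clamp, fell by 1.60 and the chromatin assembly kinase TLK2 fell by 1.37. ATR, which activates CHEK1, fell by 0.85 (FDR 0.0326), a call that ended without vehicle 1 (FDR 0.0571). ATM, which answers double-strand breaks, was at 0.13, and CHEK2, its target, at −0.15, both uncalled.

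**Figure D2:**
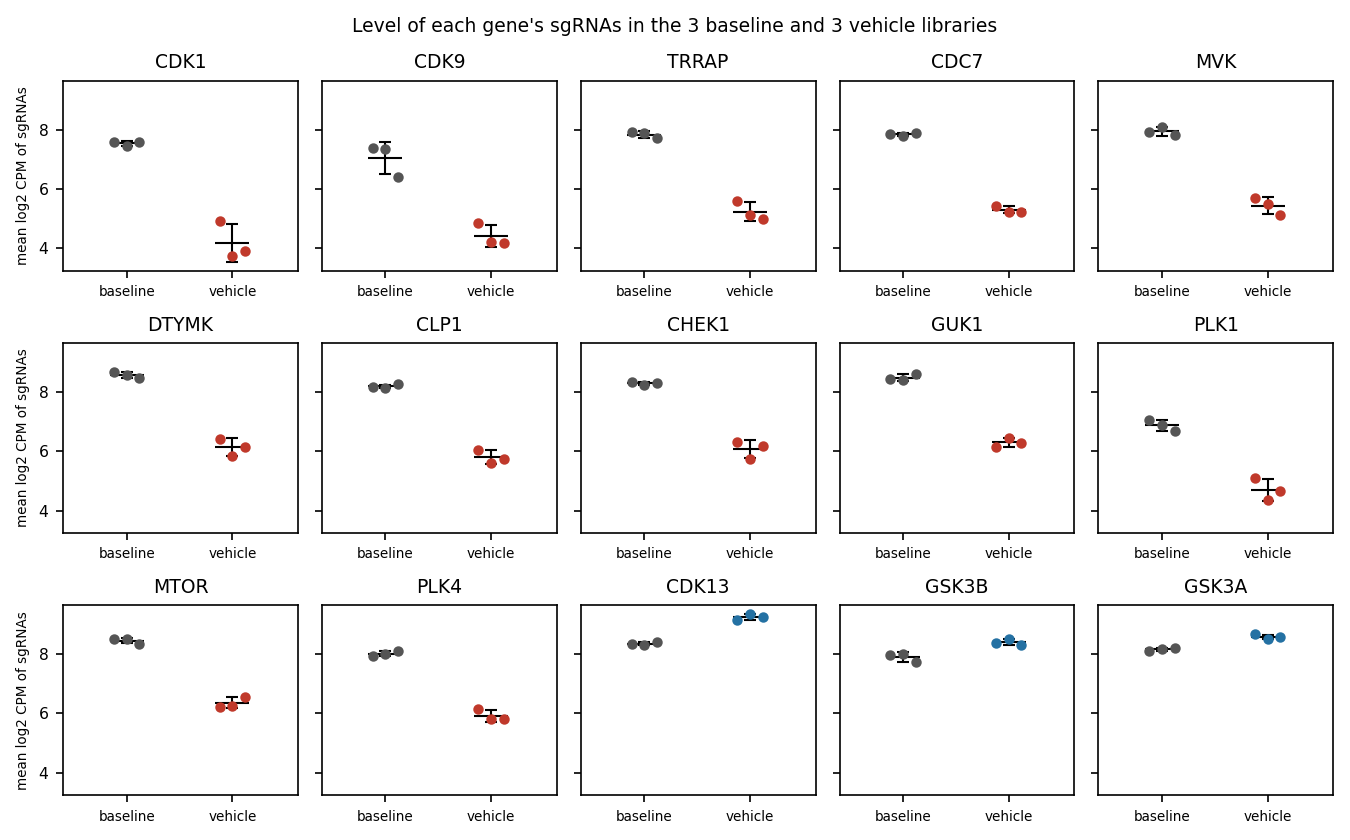
Each panel shows 1 gene, with the mean log2 CPM of its sgRNAs on the vertical axis in the 3 baseline libraries (grey) and the 3 vehicle libraries (red for depleted, blue for enriched genes). Bars mark the mean ± SD over 3 libraries, and all panels share 1 axis. In the 12 genes with the largest decreases every vehicle point lies below every baseline point, and in CDK13, GSK3B and GSK3A every vehicle point lies above. The panels were chosen by the same change, so this separation follows in part from the choice. Over all genes 24.4% lay wholly below baseline and 19.5% wholly above.

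Transcription genes moved in both directions. Of 20 genes 5 were depleted (25%, against 6.68% of all genes) and 1 was enriched (against 0.393%), with a median of −0.45. CDK9 releases paused RNA polymerase II into elongation. Its level was 7.38, 7.35 and 6.41 log2 CPM at baseline and 4.84, 4.22 and 4.19 in the vehicle libraries, so baseline 3 lay apart from the other baseline libraries but above all vehicle libraries. That offset came with 1 sparse sgRNA, which had 112, 116 and 7 reads at baseline and 8, 0 and 0 at day 10. CDK9 fell by 2.89 ± 1.36 (SD, 4 sgRNAs; FDR 0.00735), and fell by 4.01 when vehicle 1 was left out, while the other CDK9 sgRNAs ranged from −3.02 to −1.70. TRRAP, a scaffold without kinase activity in histone acetyltransferase complexes, was at 7.91, 7.89 and 7.70 log2 CPM at baseline and at 5.58, 5.13 and 4.98 in the vehicle libraries. TRRAP fell by 2.56 ± 0.86 (SD, 4 sgRNAs; FDR 0.00333), more than the spread in either group. TAF1 of the TFIID complex fell by 1.68 and GTF2H1 of TFIIH fell by 1.35.

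CDK13, which phosphorylates the tail of RNA polymerase II, moved the other way. It was at 8.34, 8.29 and 8.40 log2 CPM in the baseline libraries and at 9.15, 9.35 and 9.24 in the vehicle libraries. The groups were wide apart, and CDK13 showed the largest increase of all genes, 0.91 ± 0.13 (SD, 4 sgRNAs; FDR 2.6e-06), or 1.88-fold. All 4 sgRNAs rose, by 0.72 to 1.01, each above the highest of the 99 non-targeting sgRNAs (0.67). Relative to the non-targeting median the rise was 0.59. The call held under all 19 alternatives run. Its close relative CDK12 was at −0.54 ± 0.33 with all 4 sgRNAs below 0, and was not called (FDR 0.0654).

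RNA processing and ribosome maturation had 6 of 17 genes depleted (35.3%, against 6.68% of all genes) and a median of −0.36. CLP1, an RNA kinase that takes part in tRNA splicing and mRNA 3′ end formation, was at 8.15, 8.13 and 8.25 log2 CPM at baseline and at 6.05, 5.61 and 5.74 in the vehicle libraries. It fell by 2.35 ± 1.33 (SD, 4 sgRNAs; FDR 0.00495), with the groups well separated. TP53RK, of the KEOPS complex that modifies tRNA, fell by 1.99, and the exosome nuclease EXOSC10 fell by 1.46. RIOK1, of small ribosomal subunit maturation, fell by 1.44 on 3 of 4 sgRNAs, with the other at 0.15. The spliceosome kinase PRPF4B fell by 1.36 and SMG1, of nonsense-mediated decay, fell by 1.16, both with closely matching sgRNAs (SD 0.16 and 0.15). The call on EXOSC10 (FDR 0.0399) ended without baseline 3 (FDR 0.0548), vehicle 1 (0.0613) or vehicle 2 (0.0712). NOL9, a polynucleotide kinase of rRNA processing, was at −1.37 and did not pass (FDR 0.0747).

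Within growth signalling, decreases ran along the PI3K to mTOR axis, where 4 of 21 genes were depleted, against 6.68% of all genes. The median of the list was −0.06. MTOR, the kinase that couples nutrients to protein synthesis, was at 8.51, 8.49 and 8.34 log2 CPM at baseline and at 6.23, 6.26 and 6.56 in the vehicle libraries. It fell by 2.07 ± 1.33 (SD, 4 sgRNAs; FDR 0.00352) with no overlap. PDPK1, which activates AKT, fell by 1.63 on 3 of 4 sgRNAs, with the other at 0.21. PIK3CA, the catalytic subunit p110 alpha, stood at 8.55, 8.50 and 8.57 log2 CPM at baseline and at 7.41, 7.27 and 7.33 in the vehicle libraries. Its groups were narrow and apart, and it fell by 1.20 ± 0.80 (SD, 4 sgRNAs; FDR 0.0280). That call ended without vehicle 2 (FDR 0.0529) or vehicle 3 (0.0516). AKT1 had the smallest decrease among the called genes, 0.51 (FDR 0.0242), and its call ended without vehicle 1 (FDR 0.0576) or vehicle 2 (0.0786). PIK3R1, a regulatory subunit that also restrains p110, was at 0.45 (FDR 0.259 for enrichment).

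Receptor tyrosine kinases and the RAF to ERK cascade gave no calls. None of 54 receptors passed (median 0.03), and none of 13 RAF, MEK, ERK and RSK genes passed (median −0.03, range −0.28 to 0.39). Of 18 genes of the p38 and JNK stress pathways 1 passed (5.56%, near the 6.68% of all genes), the p38 alpha kinase MAPK14, which fell by 1.58 with 4 of 4 sgRNAs called. Of 26 adhesion and cytoskeleton genes 2 were depleted (7.69%, also near that share), the RAC and CDC42 effector PAK2 (−1.67) and CSK, which inhibits SRC family kinases (−0.84). The latter lists had medians of −0.02 and −0.03, near that of all genes.

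Metabolic enzymes were depleted at single steps rather than as whole lists. Of 34 genes of nucleotide synthesis and salvage 4 were depleted (11.8%, against 6.68% of all genes, median 0.00). DTYMK, which makes dTDP from dTMP, was at 8.66, 8.57 and 8.47 log2 CPM at baseline and at 6.43, 5.82 and 6.14 in the vehicle libraries. It fell by 2.42 ± 1.23 (SD, 4 sgRNAs; FDR 0.00333), with vehicle 2 lowest and no overlap. GUK1, which phosphorylates GMP and was measured on 3 sgRNAs, was at 8.43, 8.40 and 8.61 log2 CPM at baseline and at 6.16, 6.45 and 6.29 in the vehicle libraries. All its vehicle values were below baseline, and GUK1 fell by 2.16 ± 0.91 (SD, 3 sgRNAs; FDR 0.00333). CAD, which performs the first steps of pyrimidine synthesis, fell by 1.23, and NME6, a nucleoside diphosphate kinase family member of mitochondria, fell by 1.03. The salvage kinases TK1 (0.04) and DCK (0.08) were not called.

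MVK was the most depleted gene of the isoprenoid, cofactor and selenium list. In that list 4 of 20 genes were depleted (20%, against 6.68% of all genes, median −0.04). MVK phosphorylates mevalonate on the way to cholesterol and isoprenoids. Its level was 7.91, 8.10 and 7.81 log2 CPM in the baseline libraries and 5.68, 5.51 and 5.12 in the vehicle libraries. It fell by 2.44 ± 1.16 (SD, 4 sgRNAs; FDR 0.00603), far beyond the spread within groups. PMVK, the next kinase of that pathway, was at −1.14 and missed the threshold (FDR 0.0524). DOLK, which makes the lipid carrier of N-glycosylation, fell by 1.68. SEPHS2, which supplies selenium for selenoproteins, fell by 1.53, and COASY, of coenzyme A synthesis, fell by 1.50. Glycolysis had 2 of 23 genes depleted (8.70%, near the 6.68% of all genes, median 0.00), the ATP-forming enzymes PGK1 (−1.70) and PKM (−1.51), while hexokinase HK2 was at −0.74 (FDR 0.0532). Among 19 mitochondrial genes (median 0.11) LRPPRC, which stabilises mitochondrial mRNA, fell by 1.73.

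Membrane phosphoinositide kinases had 2 of 14 genes depleted (14.3%, against 6.68% of all genes, median −0.04). PIK3C3, the lipid kinase of autophagy and endosomes, fell by 1.13, and PIP5K1A, a kinase of phosphatidylinositol phosphate, fell by 0.61. Both calls were marginal. PIK3C3 (FDR 0.0474) lost its call without baseline 3 (FDR 0.0517), vehicle 2 (0.0591) or vehicle 3 (0.0526), and also with the replicate number as a block (0.0526). PIP5K1A (FDR 0.0326) lost its call without baseline 3 (FDR 0.0565), vehicle 1 (0.0728) or vehicle 3 (0.0859). The share outside the lists also depends on how the lists were chosen. Of 394 genes in no function list 4 were depleted (1.02%, against 6.68% of all genes, median 0.04). They included ITPK1, an inositol phosphate kinase that fell by 1.36, the channel kinase TRPM7 (−1.15, on 3 of 4 sgRNAs) and the BMP receptor ACVR1 (−0.77). TRPM7 lost its call without vehicle 2 (FDR 0.0554) and ACVR1 without vehicle 1 (0.0632).

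**Figure D3:**
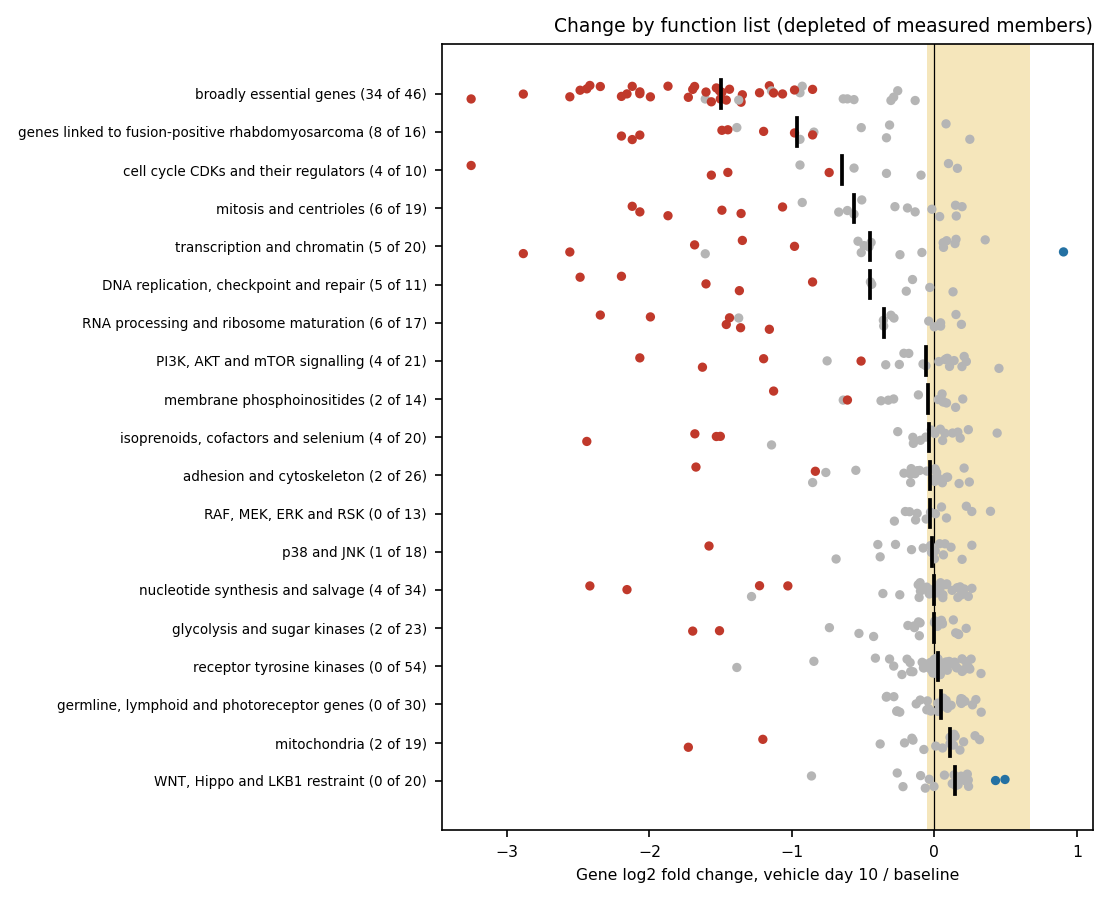
Points are genes, placed along the horizontal axis by log2 fold change from baseline to vehicle at day 10 and grouped by function list, with the number depleted of those measured after each name. Red marks depleted, blue enriched and grey uncalled genes, the black line is the median of the list, and the yellow band is the range of single non-targeting sgRNAs (the vertical scatter within a list has no meaning). Lists of cell cycle, mitosis, replication, transcription and RNA processing have medians between −0.65 and −0.36, and the other function lists lie between −0.06 and 0.14.

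Genes listed as needed by most cultured cells made up most of the depleted genes. That list was written from general knowledge with earlier results of these data known, so its counts are description and not a test. Of 46 broadly essential genes 34 were depleted (73.9%, against 6.68% of all genes) and none was enriched. Their median was −1.50, and in all 46 the 3 vehicle libraries lay below the 3 baseline libraries, as they did in 24.4% of all genes. The median shift of this list was −1.48, −1.46 and −1.55 in vehicle libraries 1, 2 and 3, so each library carried it equally. Its members that were not called included CDK7 (−1.61), TTK, RIOK2 (−0.30), PI4KA (−0.29), RFK (−0.26) and GSG2, the histone kinase haspin (−0.13). The 17 depleted genes outside that list included CDK6, CDK2, TLK2, PDPK1, PIK3CA, AKT1, PIP5K1A, NME6, DOLK, MAPK14, PAK2, CSK, ITPK1, TRPM7 and ACVR1.

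WNT, Hippo and LKB1 pathway genes that restrain growth had the highest median of the lists, 0.14. Relative to the non-targeting median it stood at −0.17. The lowest member, CSNK1A1, was at −0.86 and uncalled. Of 20 genes 2 were enriched, against 0.393% of all genes, and none was depleted. Both enriched genes were isoforms of GSK3, a kinase that marks beta-catenin for degradation and dampens glycogen synthesis. GSK3B was at 7.97, 8.01 and 7.72 log2 CPM at baseline and at 8.36, 8.51 and 8.31 in the vehicle libraries. It rose by 0.50 ± 0.21 (SD, 4 sgRNAs; FDR 0.0360), with all vehicle values above all baseline values. GSK3A was at 8.09, 8.17 and 8.21 log2 CPM at baseline and at 8.66, 8.50 and 8.56 in the vehicle libraries, and rose by 0.43 ± 0.24 (SD, 4 sgRNAs; FDR 0.0210). For each isoform 3 of 4 sgRNAs were called higher and all 4 were above 0. Both increases lay inside the range of the non-targeting sgRNAs, and relative to their median GSK3B stood at 0.18 and GSK3A at 0.12.

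The GSK3 calls depended on single libraries. GSK3A lost its call without baseline 1 (FDR 0.149), vehicle 1 (0.149), vehicle 2 (0.277) or vehicle 3 (0.191). GSK3B lost its call without baseline 3 (FDR 0.135), vehicle 1 (0.149) or vehicle 3 (0.0670). In DESeq2 neither passed (FDR 0.0869 for GSK3A and 0.0642 for GSK3B), and with non-targeting scaling GSK3B did not (FDR 0.0642).

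Agreement among the sgRNAs of a gene varied widely. All sgRNAs were below 0 in 48 of the 51 depleted genes, the exceptions being PDPK1, RIOK1 and TRPM7 with 1 sgRNA each above 0. Every sgRNA was called lower in 36 genes, 3 of 4 in 14 genes and 2 of 4 in 1 gene. The SD over sgRNAs had a median of 0.68 in depleted genes, from 0.08 for BUB1B to 1.69 for CDC7, against 0.19 over all genes, and in 16 depleted genes the sgRNAs spanned more than 2 on the log2 scale. A gene's mean therefore mixes strong and weak sgRNAs. Removing the strongest sgRNA of each gene left 15 depleted genes and 1 enriched gene.

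**Figure D4:**
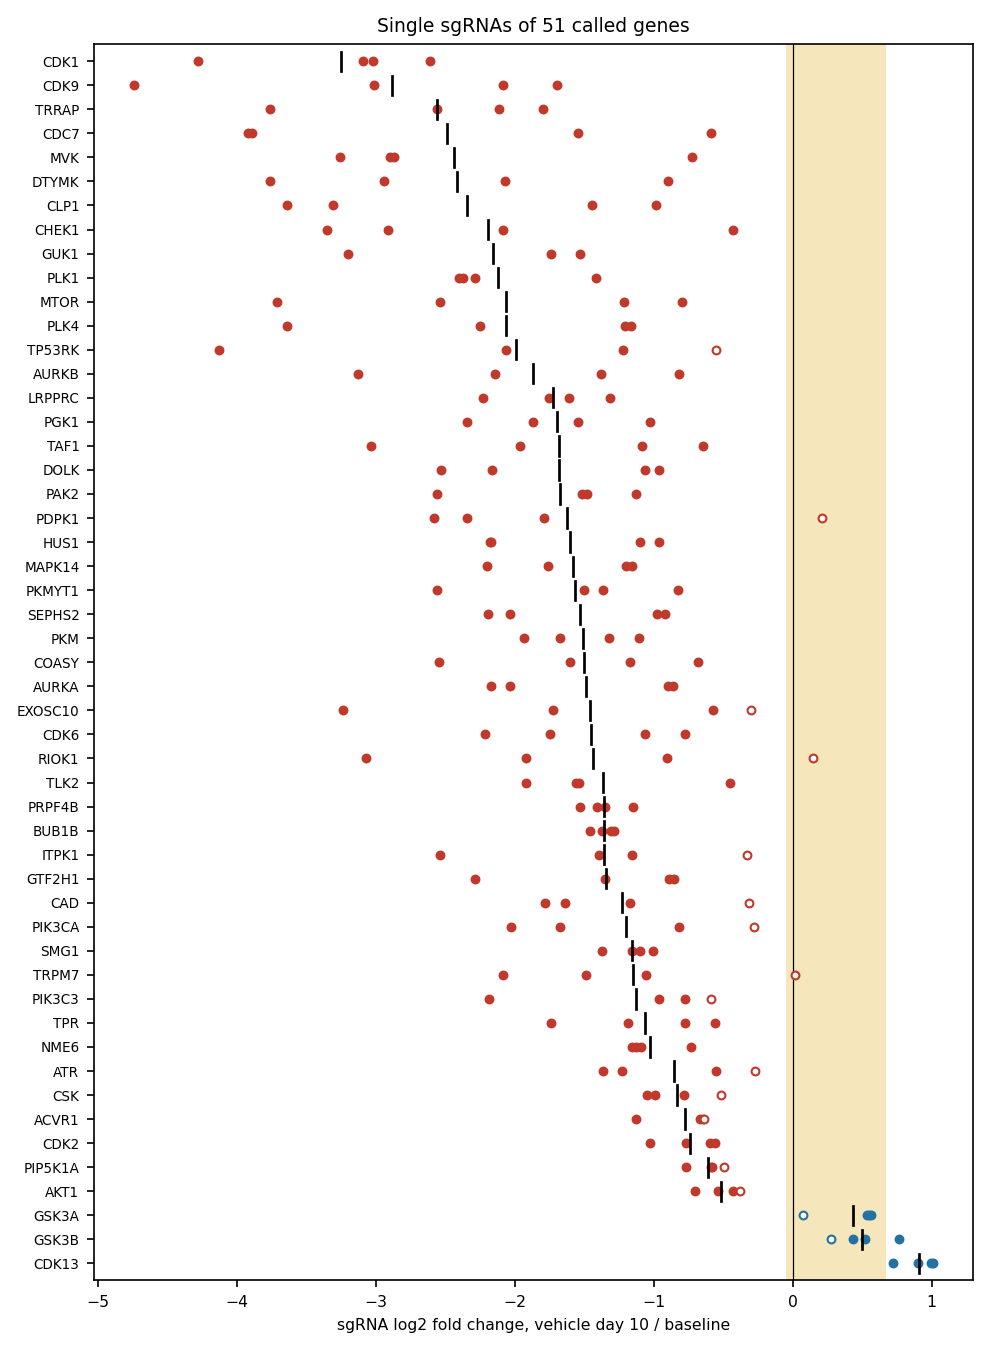
Each row is 1 of 51 called genes, 48 depleted and 3 enriched, ordered by log2 fold change, and each point is 1 sgRNA on the log2 fold change axis, filled where the sgRNA itself was called and open where it was not. Red marks depleted and blue enriched genes, the black line is the gene mean and the yellow band the range of 99 non-targeting sgRNAs. BUB1B sgRNAs cluster tightly, CDC7 sgRNAs spread from −3.92 to −0.59, and the 4 CDK13 sgRNAs lie to the right of the band.

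Among the genes not called, some had sgRNAs far apart. The 6 uncalled genes with the largest SD over sgRNAs were IGF1R, CDK7, WNK1, NRBP1, CMPK1 and CSNK2B. In each of them all vehicle libraries lay below all baseline libraries, as they did in 24.4% of all genes. Choosing genes by a large SD favours those with some strongly changed sgRNAs. CDK7, the kinase of TFIIH that also activates other CDKs, was at 7.36, 7.19 and 7.35 log2 CPM at baseline and at 5.73, 5.55 and 5.73 in the vehicle libraries. Its sgRNAs stood at −3.35, −2.39, −0.55 and −0.14 (mean −1.61, FDR 0.198). WNK1, a regulator of ion transport, was at 8.56, 8.69 and 8.58 log2 CPM at baseline and at 7.23, 7.34 and 7.19 in the vehicle libraries. The sgRNAs of WNK1 ran from −3.29 to 0.06 (mean −1.36, FDR 0.0532), and it passed without baseline 1 (FDR 0.0352) or vehicle 2 (0.0469).

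The other three covered a pseudokinase, a nucleotide enzyme and a regulatory subunit. NRBP1, a pseudokinase linked to protein turnover, was at 8.03, 8.12 and 8.19 log2 CPM at baseline and at 7.16, 7.20 and 6.90 in the vehicle libraries, and its sgRNAs ran from −2.50 to 0.25 (FDR 0.182). CMPK1, which phosphorylates UMP and CMP, was at 8.29, 8.42 and 8.32 log2 CPM at baseline and at 6.79, 7.10 and 7.20 in the vehicle libraries, with sgRNAs from −3.05 to −0.20 (FDR 0.0831). CSNK2B, the regulatory subunit of casein kinase 2, was at 8.10, 8.26 and 8.22 log2 CPM at baseline and at 7.58, 7.11 and 7.28 in the vehicle libraries, with sgRNAs from −2.43 to 0.17 (FDR 0.267). In NRBP1 and CSNK2B the sgRNAs fell into a low pair and a pair near 0. The files hold no guide sequences, so whether the weak sgRNAs cut poorly was not tested.

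Genes listed from general knowledge as linked to FP-RMS numbered 16. Of them 8 were depleted (50%, against 6.68% of all genes), with no member called enriched. Their median was −0.96 against 0.02 over all genes. The list was written with earlier results of these data known, so these values do not test a link to the disease. Of the 8 depleted genes, 6 are in the broadly essential list too, CHEK1, PLK1, MTOR, AURKA and ATR among them. CHEK1, PLK1, MTOR and PIK3CA are described above. AURKA, which is also known to stabilise MYCN, was at 7.18, 7.00 and 7.10 log2 CPM at baseline and at 5.59, 5.38 and 5.82 in the vehicle libraries, and fell by 1.49 ± 0.71 (SD, 4 sgRNAs; FDR 0.0101). ATR was at 8.68, 8.65 and 8.65 log2 CPM at baseline and at 7.83, 7.87 and 7.70 in the vehicle libraries. Baseline values of ATR varied little, and all vehicle values were below them.

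CDK4 and CDK6, the paired G1 kinases that open the restriction point with D-type cyclins, differed. CDK6 was at 8.20, 8.23 and 8.21 log2 CPM at baseline and at 6.85, 6.86 and 6.58 in the vehicle libraries, and fell by 1.45 ± 0.65 (SD, 4 sgRNAs; FDR 0.00333). CDK4 was at 7.55, 7.67 and 7.54 log2 CPM at baseline and at 7.24, 7.30 and 7.23 in the vehicle libraries. Its groups did not overlap either, but the change was −0.34 ± 0.10 (SD, 4 sgRNAs; FDR 0.268) and none of its sgRNAs was called. The difference between the pair was not tested. WEE1, a nuclear kinase that restrains CDK1, was at 7.11, 6.94 and 6.75 log2 CPM at baseline and at 6.23, 5.75 and 5.97 in the vehicle libraries (−0.94, FDR 0.101). Like PLK1 and AURKA it was scarce at baseline. So were genes with small changes, such as PFKL (6.77 log2 CPM, change −0.19) and LMTK2 (6.99 log2 CPM, change −0.04). None of the libraries predates baseline, so whether such sgRNAs had fallen by then was not tested. TRIM28, a corepressor, was at 8.29, 8.17 and 8.21 log2 CPM at baseline and at 7.71, 7.52 and 7.88 in the vehicle libraries (−0.51, FDR 0.0647).

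The growth factor receptors of the list were not called. FGFR4, a transcriptional target of the fusion, was at 8.29, 8.20 and 8.30 log2 CPM at baseline and at 7.52, 7.22 and 7.45 in the vehicle libraries. Its sgRNAs stood at −1.48, −1.16, −0.58 and −0.17 (mean −0.85, FDR 0.122), with 3 of 4 called. IGF1R, the receptor of IGF2, was at 8.25, 8.31 and 8.16 log2 CPM at baseline and at 6.79, 6.92 and 6.90 in the vehicle libraries. All vehicle libraries were low, yet the IGF1R sgRNAs stood at −3.43, −2.21, −0.22 and 0.31 (mean −1.39, FDR 0.0874), so 2 sgRNAs carried the decrease, and IGF1R passed when the 6 libraries were fitted alone (FDR 0.0392).

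PDGFRA, ALK and MET are further receptors studied in this tumour. PDGFRA was at 8.11, 8.16 and 8.18 log2 CPM at baseline and at 7.88, 7.72 and 7.89 in the vehicle libraries (−0.31, FDR 0.711). ALK was at 8.30, 8.27 and 8.32 log2 CPM at baseline and at 8.44, 8.35 and 8.34 in the vehicle libraries (0.08). MET was at 8.15, 8.09 and 8.27 log2 CPM at baseline and at 8.38, 8.37 and 8.51 in the vehicle libraries (0.25, FDR 0.594 for enrichment). The vehicle values of ALK and MET were all above baseline, as in 19.5% of all genes. Both gene changes were smaller than the median rise of the non-targeting sgRNAs (0.31).

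Families of related genes are given where at least 1 member was called, so the presence of a called member in each follows from that choice. Among class I PI3K catalytic subunits PIK3CA fell, while PIK3CB (0.08), PIK3CD (−0.08) and PIK3CG (−0.06) were not called. AKT1 was depleted, and AKT2 was at −0.34 on 3 sgRNAs (FDR 0.198). MAPK14 was the p38 kinase that passed, with MAPK11, MAPK12 and MAPK13 between −0.16 and 0.00. PAK2 fell, and the other 5 PAK genes measured lay between −0.17 and 0.21. PGK1 fell, and PGK2, its testis-restricted copy, was at 0.04. AURKA and AURKB fell and AURKC, mainly of germ cells, was at 0.04. CDK3 (0.10), CDK11A (0.15), CDK11B (−0.24) and CDK19 (0.09) were not called. Both GSK3 genes were enriched. Differences between members were not tested, and whether an sgRNA also matches a paralogue could not be read from the files.

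**Figure D5:**
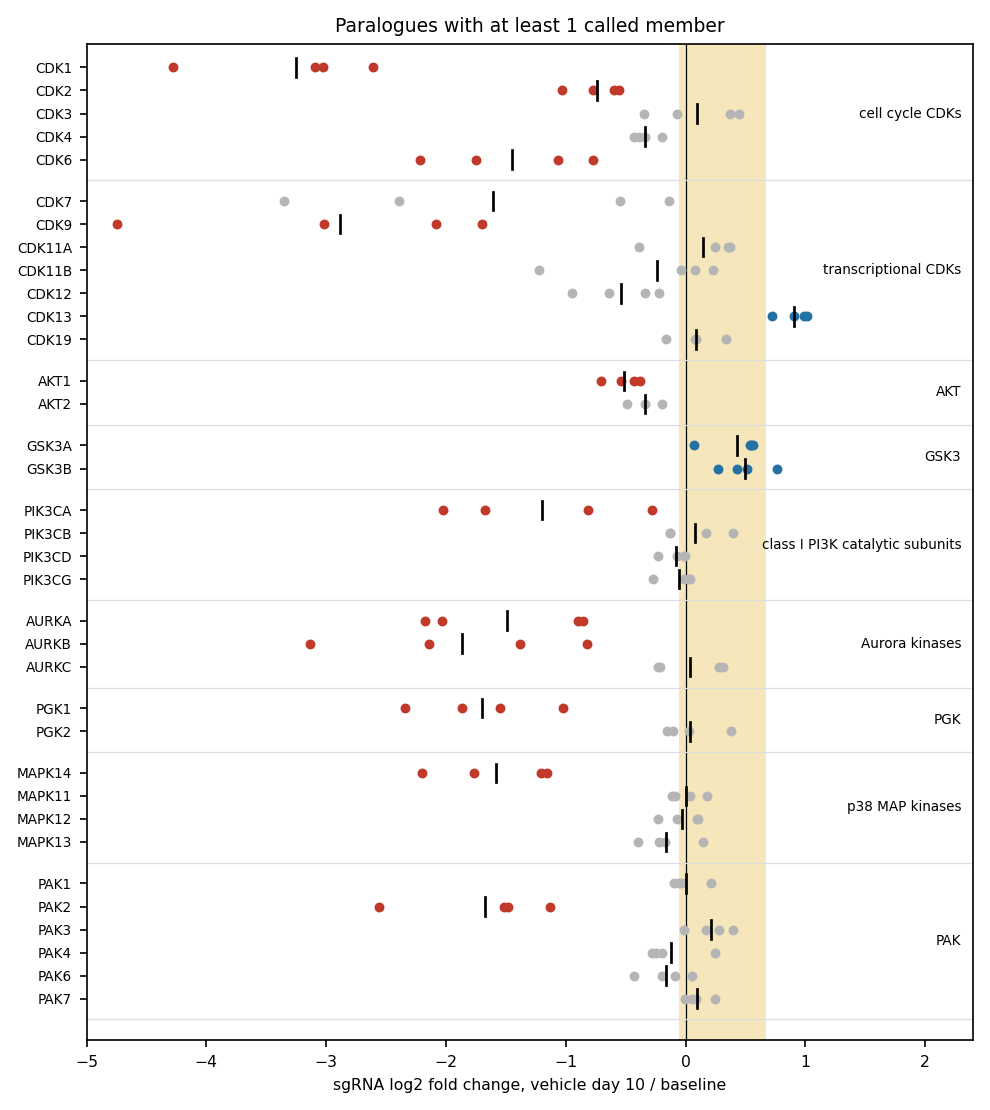
Rows are genes grouped by family, points are single sgRNAs on the log2 fold change axis, black lines are gene means and the yellow band is the range of 99 non-targeting sgRNAs. Red marks depleted, blue enriched and grey uncalled genes. In the PI3K, p38, PAK and PGK families the depleted member has a mean of −1.20 or lower, and the means of the others lie between −0.17 and 0.21.

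The median level at baseline was 8.20 log2 CPM in depleted genes and 8.20 in the others. The broadly essential genes had a median of 8.15, and 8 of 46 lay under 7.6 log2 CPM, a limit chosen after the values were seen, against 44 of all 763 genes (5.77%). Of the 51 depleted genes 4 lay under it (7.84%). These were CDK1 (7.53 ± 0.08) and CDK9, PLK1 and AURKA, with baseline means of 7.04 ± 0.55, 6.87 ± 0.17 and 7.09 ± 0.09 log2 CPM (SD, n = 3 libraries), and so their fold changes rest on fewer reads. The same 51 genes stood at a median of −1.53 from baseline in the pralatrexate libraries and of −1.52 in the vehicle libraries on the scale of levels, 2 values that share the baseline libraries.

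On the genome, coordinates of build GRCh38.p14 place CDK1 at chr10:60778331-60794852, CDK9 at chr9:127786034-127790792 and TRRAP at chr7:98878532-99013241. CDK13 lies at chr7:39950256-40099580, GSK3A at chr19:42230190-42242602 and GSK3B at chr3:119821321-120094447. These are spans of whole genes, and the sgRNAs within them were not placed.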

How the data were processed

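The authors deposited a table of raw read counts per sgRNA for all 9 libraries. The submitters' processing notes name Bowtie 1.0.0, with mismatch settings not given in the sources used here. No molecular identifiers are mentioned, so PCR copies count as reads. The authors also deposited MAGeCK gene tables with log2 fold changes, scores, p-values and FDRs of their comparisons, which were not used.

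sgRNAs with a mean of 30 or more reads over the 9 libraries were kept (3145 of 3152, 99 of them non-targeting). The 7 removed left AKT2, ERN1, GUK1, RPS6KA4, PAPSS1 and CKMT1A with 3 sgRNAs. Counts were fitted with edgeR 4.0.16 in R 4.3.3 (TMM scaling, quasi-likelihood, group as the only term, all 9 libraries, contrast vehicle minus baseline). The coefficient of variation between libraries was 13.2%. MAGeCK, which the study used, was not installed, so its rank aggregation was applied to the one-sided edgeR p-values per direction. sgRNAs with a p under 0.25 entered the score, its p was computed exactly from the distribution of uniform order statistics, and Benjamini-Hochberg adjustment ran over 763 genes at 0.05. The scripts were tested on simulated data. Levels are log2 CPM with a prior count of 2. Deviations of baseline and vehicle libraries with the same replicate number were correlated at 0.071, 0.022 and 0.062. Those with different numbers were at −0.071 to 0.011. All of these values are weak, so whether the numbers pair the libraries is not settled.

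Genes were grouped into 17 function lists of 369 genes and 2 overlapping lists written from general knowledge. Members and lists were chosen with earlier results of these data known. Called genes were named, except a few that are not reported here. Values per library were given for the 12 depleted genes with the largest decreases and every sgRNA lower, the enriched genes, the genes linked to FP-RMS and the 6 uncalled genes with the largest SD over sgRNAs. Families were shown where 1 member was called. Alternatives covered scaling, filters, the libraries fitted, leaving out each library, DESeq2 1.42.0, limma 3.58.1, summed reads and the rank aggregation. Gene spans came from RefSeq, matched by symbol for 761 of 763 genes.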

Additional observations from a re-analysis of the deposited data

How the results depend on the processing

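Depth ranged from 1013.5 to 1460.3 reads per sgRNA and library, yet the sparsest CDK9 sgRNA had 0 to 8 reads at day 10. Of the 54 called genes, 43 passed in all 6 fits that left out 1 library and 16 passed under all 19 alternatives. Over 1026 combinations of called gene and alternative, 947 kept the call, 79 lost it in the same direction and 0 changed sign. Leaving out 1 library gave 49 to 56 depleted genes, 1 to 5 enriched genes (5 without baseline 2 and 1 without vehicle 3), 328 to 376 lower sgRNAs and 110 to 184 higher sgRNAs, with 122, 115 and 110 higher sgRNAs without baseline 1, 2 or 3. With the replicate block, 49 genes were depleted and 3 enriched, and PIK3C3 (FDR 0.0526) was among those that lost their call. Libraries that shared a replicate number were only weakly correlated in their deviations. Non-targeting scaling gave 1389 lower and 13 higher sgRNAs, and 646 genes below and 1 above baseline in every library. Scaling on germline, lymphoid and photoreceptor genes gave 125 higher sgRNAs and 93 genes above baseline. DESeq2 gave 336 higher sgRNAs and 1 enriched gene. Without the strongest sgRNA of each gene 15 were depleted and 1 enriched, on fewer sgRNAs by construction. Tests that do not ask for agreement among sgRNAs called more genes, 160 depleted and 110 enriched in edgeR on summed reads and 157 and 105 in limma on gene means. The cause of the other shifts was not tested.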

Other observations

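In 6 genes a single sgRNA was called lower, below −1, while the other sgRNAs all stood above −0.3. They included PKD1, DGKG, CDK11B, NEK2 and MYLK2, chosen after their values were seen. The DGKG sgRNA went from 603, 704 and 627 reads at baseline to 260, 269 and 260 in the vehicle libraries, an even drop in all 3. The MYLK2 sgRNA went from 1342, 1277 and 1096 reads to 191, 1412 and 393, so vehicle 2 showed no drop.

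Uncalled genes with the largest increases included PIK3R1 (0.45) and the ERK-activated kinase RPS6KA3 (0.39, FDR 0.0719), each with all 4 sgRNAs above 0. Their values lie within the range of the non-targeting sgRNAs. By chromosome, the median change of uncalled genes ran from −0.11 on chromosome 12 (35 genes) to 0.14 on chromosomes 7 (40 genes) and X (31 genes).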
